A study of Homo sapiens with 6 samples.

Results

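Human fibroblasts of the MRC5 line that had been kept in tumour-cell medium for 7 days, called induced cancer-associated fibroblasts (iCAFs), were compared with untreated MRC5 gene by gene across the transcriptome. Members of the comparison were all genes whose FPKM (fragments per kilobase of transcript, scaled by the mapped fragments of the library) averaged 1 or more over the 3 libraries of the table. This kept 11780 of 25368 gene symbols. For each gene the level in iCAFs was set against the level in MRC5 as a difference of log2(FPKM + 1), so that a difference of 1 stands for a 2-fold change in FPKM + 1, and "rose" or "fell" is used below for a difference of at least 1 in size. The scale understates the change of genes near 0 FPKM, and a ratio given as a fold is the plain ratio of the FPKM values.

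The series held 6 RNA-seq libraries of MRC5, each 1 library of its condition, in 2 tables that were normalised apart. MRC5 is a human embryonic lung fibroblast line that the study had immortalised with a lentivirus carrying hTERT, and MDA-MB-231 is a line of human breast carcinoma cells. The MRC5 library carried no treatment. The iCAFs library came from the same line after 7 days in conditional medium (CM) that MDA-MB-231 cells had shed into DMEM without serum, whereas MRC5 was maintained in DMEM with serum, so factors of the tumour cells, the lack of fresh serum and a spent medium cannot be told apart. The third library of the table, iCAFs+JNKi, held iCAFs that had also received an inhibitor of JUN N-terminal kinase at 1 µM for 48 hours, and the protocol gave a DMSO vehicle to the iCAFs it set against them, though the label of the iCAFs library does not name it. The other table held MRC5 with an empty adenovirus (con), with JUN WT or with JUN AA, a JUN whose phosphorylation sites were changed. With 1 library on each side there is no replicate error, no test and no p-value, and every value below describes these libraries and not the spread of the condition.

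Fibroblasts respond to signals from carcinoma cells by changing what they secrete. Inflammatory CAFs release chemokines and cytokines, largely under transcription factors of the NF-kB and AP-1 families, and draw leukocytes into the stroma, whereas myofibroblastic CAFs build contractile fibres and collagen matrix. Sterol synthesis in the same cells is set by the SREBP transcription factors, which switch on the whole enzyme chain when the membranes run short of cholesterol and fall silent when it is plentiful.

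FPKM summed to 399532 in MRC5 and 393521 in iCAFs, and the number of reads behind them is unknown, so no counting interval can be given. The fibroblast identity of both libraries was plain in the markers: 13 of 13 passed the filter, 2 of them fell (S100A4 and DCN), with summed levels of 7963 FPKM in MRC5 and 8229 FPKM in iCAFs. The markers were not unchanged, and their median difference was -0.25 against -0.06 for all genes. The sums held a higher FN1 (2044 to 3939.9 FPKM) and a lower VIM (2892 to 1655 FPKM). Of 15 epithelial markers, 12 in MRC5 and 13 in iCAFs lay below 1 FPKM, their sum went from 40.7 to 34.6 FPKM, and CDH1, KRT5, KRT14, ESRP1 and GRHL2 were listed at 0 in both. MDA-MB-231 is itself a mesenchymal line with little CDH1, so these markers bear weakly on any carry-over of the cells that had made the medium. PTPRC, the common leukocyte marker, and PECAM1, an endothelial one, were also listed at 0 in both. TERT, the gene that the lentivirus is said to carry, was listed at 0 in all 3 libraries.

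Few genes passed the limit. In iCAFs 228 genes (1.94% of those compared) rose and 202 (1.71%) fell, and 11350 (96.3%) lay within 2-fold. The median difference over all genes was -0.06, with quartiles of -0.24 and 0.11, so that 4780 genes (40.6%) were higher at any size and 7000 lower. The rises were the steeper side: 70 genes rose by at least 2 on the log2 scale against 18 that fell by as much, and 28 against 1 passed a difference of 3. The median level of the 228 genes went from 3.83 to 17.3 FPKM, while the 202 genes started higher, at a median of 12.5 FPKM, and ended at 3.94 FPKM. Of the rises, 63 stood below 1 FPKM in MRC5 and 15 of those were listed at 0, so their passing the filter rested on the treated libraries. Counts and medians of gene lists below are over members that passed and describe them, since a gene silent in MRC5 enters only through a rise. The values over all genes to set beside them are 1.94% risen, 1.71% fallen and a median of -0.06. With FPKM rescaled to a sum of 1000000 in each library, which lessens the weight of the added 1, 347 genes rose and 347 fell, and with 0.1 added in place of 1, 318 rose and 356 fell.

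Just inside the limit on the upper side lay PLAUR, the urokinase receptor, at 46.6 and 94.6 FPKM in MRC5 and iCAFs, ANKRD1 at 0.844 and 2.69 FPKM, and GDF15 at 33.8 and 68.7 FPKM. Just outside it lay NID1, RPL21 and MIR6732, with differences of 0.99, 0.98 and 0.98. On the lower side FN3K (5.87 and 2.41 FPKM), FAM49A (5.13 and 2.06 FPKM) and ARMCX5-GPRASP2 (5.57 and 2.28 FPKM) were just inside, and MIR4649 (2.32 and 0.662 FPKM), MIR6727 (3.76 and 1.38 FPKM) and LOC729970 (4.22 and 1.62 FPKM) just outside.

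**Figure D1:**
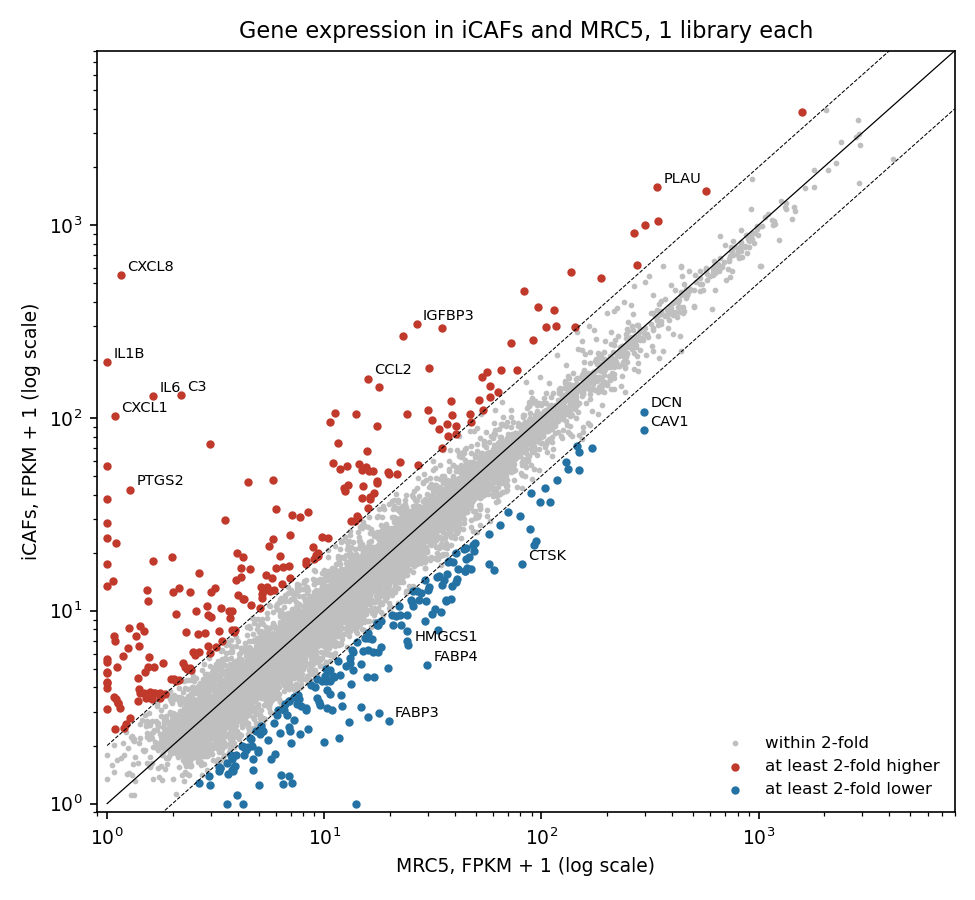
Level of each of the 11780 genes in MRC5 (horizontal axis) and iCAFs (vertical axis), as FPKM + 1 on log scales, 1 point per gene and 1 library per axis, with the solid line marking equal levels and the dashed lines the 2-fold limits. CXCL8, IL1B, CXCL1 and IL6 sit at the far upper left, near 0 in MRC5 and above 100 FPKM in iCAFs, while the 202 genes that fell lie under the lower limit.

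The largest rises were secreted inflammatory factors. Of 7 genes for CXC chemokines that attract neutrophils, 6 passed the filter and 6 rose, with a median difference of 4.24, where PPBP, the platelet chemokine of the list, was listed at 0. CXCL8 (interleukin-8) stood at 0.153 FPKM in MRC5 and 548 FPKM in iCAFs, a difference of 8.89, the greatest of any gene compared. CXCL1 went from 0.0877 to 101 FPKM, CXCL5 from 0.104 to 21.4 FPKM and CXCL6 from 0.0628 to 13.3 FPKM. CXCL3 and CXCL2 were listed at 0 in MRC5 and reached 16.5 and 4.60 FPKM. The 6 genes thus went from a joint 0.408 FPKM, close to no signal, to 705 FPKM, of which CXCL8 held the most. CXCL1, CXCL2 and CXCL3 are near copies of each other, and how reads that fit several of them were assigned is not given, so their split is uncertain.

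These genes lie side by side on chromosome 4. In the stretch chr4:74606236-75320722 (GRCh37), from CXCL8 to AREG, all 8 genes that passed the filter rose: CXCL8, CXCL6, CXCL1, CXCL5, CXCL3, CXCL2, EREG and AREG. The CXC genes among them stood at 0.153 FPKM or less in MRC5, so each could pass only by being high in a treated library. Between them PF4V1, PF4, PPBP and PPBPP2 were listed at 0 in the 3 libraries, EPGN reached 0.0381 FPKM in iCAFs, and MTHFD2L went from 0.611 to 1.29 FPKM, below the filter. Silent platelet chemokine genes thus lay among the genes that rose.

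**Figure D2:**
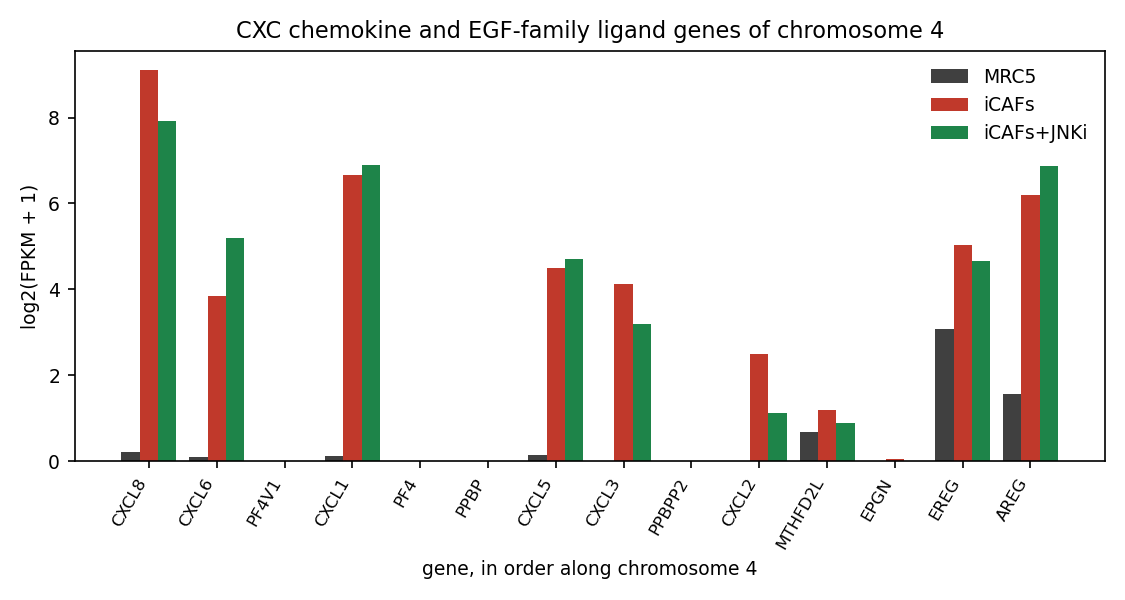
Bars give log2(FPKM + 1) of 14 genes in their order along chromosome 4 in MRC5, iCAFs and iCAFs+JNKi, 1 library per condition. Bars of MRC5 are near 0 for each chemokine gene, those of iCAFs reach above 9 for CXCL8, and PF4V1, PF4, PPBP and PPBPP2 have no bar.

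The sequences just upstream of the chemokine genes show what their promoters share. A promoter was taken as RefSeq's window of 250 bases before to 50 after the start of the gene (assembly GRCh38.p14), and the stretches below, which were placed on GRCh37 by exact match, keep at least 49 bases from the start. Capitals mark the letters TGANTCA, bound by AP-1 proteins, and the letters of an NF-kB site in either of its forms, which overlap where both occur: GGAANTTCC, or a form of 10 letters that runs GGGA, any base, TTTCC, each read on either strand.
CXCL8, chr4:74606129-74606223, plus strand: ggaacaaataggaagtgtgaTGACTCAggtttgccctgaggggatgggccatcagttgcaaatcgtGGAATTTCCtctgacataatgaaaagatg
CXCL1, chr4:74735011-74735060, plus strand: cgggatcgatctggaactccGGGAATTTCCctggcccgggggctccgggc
CXCL2, chr4:74964961-74965010, minus strand: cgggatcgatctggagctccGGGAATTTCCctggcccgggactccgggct
CXCL5, chr4:74864456-74864505, minus strand: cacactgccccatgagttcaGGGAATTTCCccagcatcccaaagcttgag
CXCL6, chr4:74702285-74702334, plus strand: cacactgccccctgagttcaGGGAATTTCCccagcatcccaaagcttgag
NFKBIA, chr14:35874007-35874056, minus strand: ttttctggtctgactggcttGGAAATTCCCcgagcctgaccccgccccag
The windows of CXCL1 and CXCL2 hold the same 10 letters in nearly the same surroundings, as do those of CXCL5 and CXCL6, and CXCL8 holds an AP-1 match as well. Searched on both strands, GGAANTTCC was found in the promoters of 6 of the 6 chemokine genes, against 0.967% of 27305 RefSeq promoters, and TGANTCA in 1 of the 6. Over the 163 rising genes with a promoter in the table, 14 (8.59%) held either NF-kB form: CXCL1, CXCL2, CXCL3, CXCL5, CXCL6, CXCL8, CXCL10, IL6, ICAM1, NFKBIA, NFKBIZ, TNFAIP3, CACHD1 and DTWD1. Among the 143 falling genes 1 (0.699%) did, FLCN, and among 9469 genes that passed the filter 136 (1.44%), beside 1.38% of the RefSeq promoters. TGANTCA was in 16 of the 163 (9.82%) and in 11 of the 143 (7.69%), against 4.29% of the genes that passed the filter and 7.76% of the RefSeq promoters. Its rising holders included CXCL8, IL11, IL1A, PLAUR, MT2A, TFPI2 and DIO2. A match of letters is a description of the window and not a bound site.

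Of 18 other chemokine genes 5 passed the filter, and 5 of those rose. CCL2, which attracts monocytes, went from 14.8 to 159 FPKM (10.7-fold), and CCL20, which attracts dendritic and lymphoid cells through CCR6, was listed at 0 in MRC5 and reached 27.4 FPKM. CCL3, which attracts macrophages, went from 0.263 to 7.14 FPKM and CXCL10, which attracts T cells, from 0.388 to 3.48 FPKM. CXCL12, the ligand of CXCR4 and a chemokine of resting stroma, went from 2.13 to 12.1 FPKM and stood at 118 FPKM in iCAFs+JNKi. The highest value among the 13 that did not pass was 1.01 FPKM.

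Both interleukin-1 genes were listed at 0 in MRC5. IL1B, a trigger of NF-kB signalling in neighbouring cells, reached 194 FPKM in iCAFs, and IL1A reached 12.5 FPKM. Of the 5 members of this family that passed, these 2 rose, and the receptor subunits IL1R1 and IL1RAP had 16.9 and 20.9 FPKM and 1.80 and 4.28 FPKM, within the limit. IL1RN, the natural antagonist, was at 0.0544 and 0.0549 FPKM, below the filter. The ligands thus appeared while IL1R1, the receptor that binds them, differed by 0.29.

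Among 22 further cytokine genes 12 passed, 6 rose and 1 fell, with a median of 1.37. IL6, the main inducer of the acute-phase response, went from 0.627 to 129 FPKM. LIF and IL11, which signal through the same gp130 receptor chain, went from 13.0 to 104 FPKM (7.95-fold) and from 10.6 to 72.7 FPKM (6.85-fold). CSF3, the growth factor of granulocytes, was listed at 0 and reached 22.8 FPKM. IL24, also listed at 0, reached 2.95 FPKM, and TNFSF15 went from 0.0704 to 6.36 FPKM. TNFSF4, the OX40 ligand, was the 1 that fell, from 14.4 to 6.25 FPKM. The shared receptor IL6ST (gp130) had 69.0 and 81.5 FPKM, and LIFR, the receptor of LIF, fell from 6.54 to 2.66 FPKM (2.45-fold lower), so the ligand and its receptor moved in opposite directions.

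**Figure D3:**
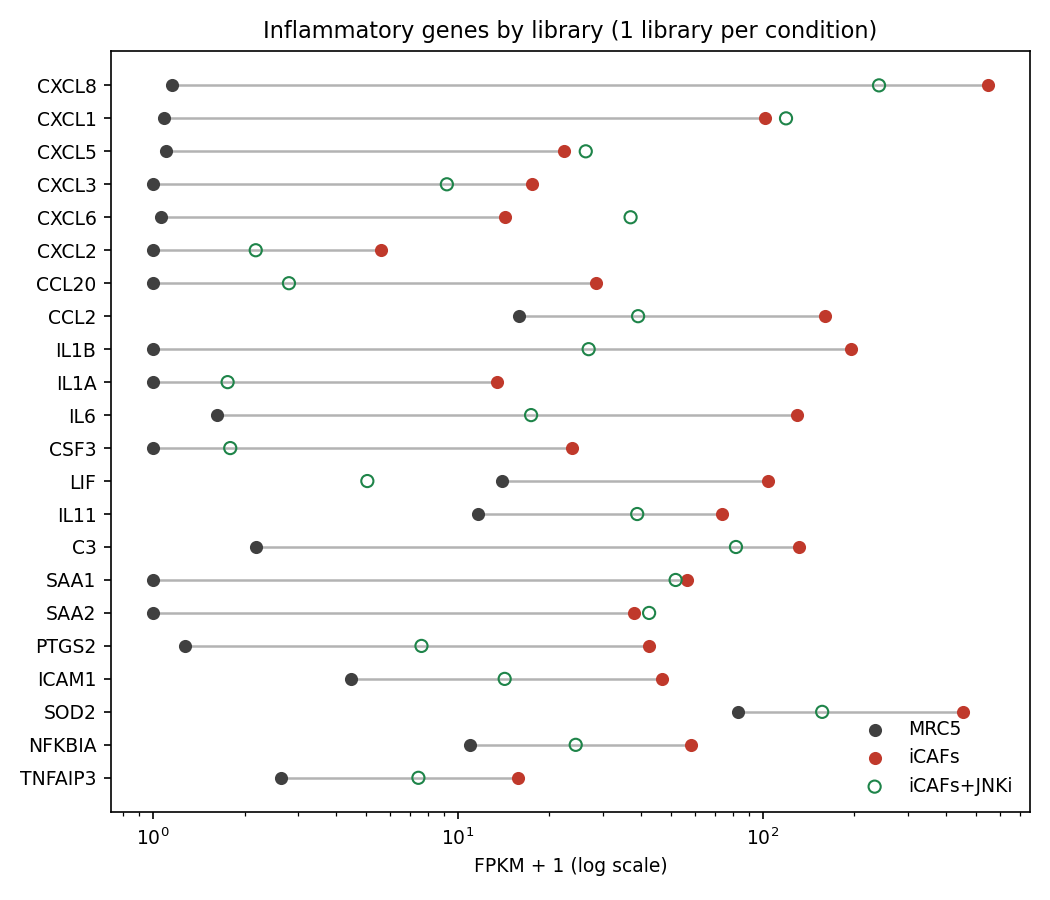
Level of 22 inflammatory genes as FPKM + 1 on a log scale in MRC5 (grey), iCAFs (red) and iCAFs+JNKi (open green), 1 library per condition, with a line joining MRC5 to iCAFs. Every iCAFs point lies to the right of its MRC5 point, and LIF stands at 4.06 FPKM in iCAFs+JNKi, left of both.

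Targets of NF-kB, feedback inhibitors included, rose beside these ligands. Of 24 subunits and targets 19 passed, 10 rose and 0 fell, at a median of 1.08. Among all genes 1.94% rose and 1.71% fell, at a median of -0.06. NFKBIA, which holds NF-kB in the cytoplasm, went from 9.97 to 57.3 FPKM (5.74-fold), and TNFAIP3 (A20), an enzyme that shuts the pathway off, from 1.64 to 14.7 FPKM. ZC3H12A, an RNase that degrades IL6 mRNA, went from 2.48 to 28.7 FPKM, and NFKBIZ, a nuclear cofactor, from 4.81 to 46.7 FPKM. The adhesion molecule ICAM1, which holds leukocytes to cells, rose 13.2-fold from 3.46 to 45.7 FPKM, and SOD2, the mitochondrial superoxide dismutase, 5.53-fold from 82.2 to 454 FPKM. RELB rose from 3.24 to 10.5 FPKM, while the precursor subunits NFKB1 and NFKB2 stayed under the limit with differences of 0.80 and 0.83. TNIP1 and IER3 also rose, by 1.63 and 2.49.

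Most AP-1 genes were slightly higher in mRNA, within the limit. Of 13 that passed 11 were above 0, beside 40.6% of all genes. Their median was 0.29 against -0.06 for all genes, and JUN and FOSL1 were the 2 below 0. JUN had 57.1 FPKM in MRC5 and 55.3 FPKM in iCAFs, a difference of -0.05. FOSL1 had 103 and 84.0 FPKM. Of 13 family members that passed 1 rose, MAFF, a small Maf protein, from 18.8 to 49.9 FPKM, and 5.81% of its exon bases are shared with PLA2G6. Phosphorylation of JUN, which JNK controls, is not seen in mRNA levels.

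Enzymes of prostaglandin synthesis rose in a chain. PLA2G4A, which frees arachidonic acid from membranes, went from 0.617 to 2.48 FPKM, PTGS2 (COX-2), the inducible cyclooxygenase, from 0.274 to 41.5 FPKM, and PTGES, which makes prostaglandin E, from 1.89 to 9.54 FPKM. AKR1B1, an aldose reductase that can make prostaglandin F, rose 3.33-fold from 299.6 to 998 FPKM. PTGDS, the synthase for prostaglandin D, fell from 9.34 to 2.14 FPKM. These were the 4 that rose and the 1 that fell among 15 that passed, whose median was 0.04. Over all genes 1.94% rose, 1.71% fell and the median was -0.06.

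Acute-phase and complement genes split. C3, the hub of the complement cascade, went from 1.18 to 130.4 FPKM, and the serum amyloids SAA1 and SAA2, listed at 0 in MRC5, reached 55.4 and 37.0 FPKM. SAA1 and SAA2 are near copies, and 11.9% of the exon bases of SAA2 are shared with the readthrough row SAA2-SAA4. Clusterin (CLU), an inhibitor of the terminal complement complex, fell 3.04-fold from 108 to 35.6 FPKM. Of 10 complement genes that passed 2 rose, C3 and C1QTNF1, a relative of complement C1q, and the median was 0.0037, so the rise of C3 did not extend across the list.

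Interferon-stimulated genes lay within the limit, as did 96.3% of all genes, so counts of 0 in lists this short tell little. Of 40 interferon-stimulated genes 25 passed, 0 rose and 0 fell, and 19 of the 25 were below 0 (59.4% of all genes were) with a median of -0.22, against -0.06 for all genes. ISG15, a ubiquitin-like protein made in response to interferon, had 67.3 and 57.6 FPKM, IFI6 had 25.8 and 24.1 FPKM, and IFIT1 had 1.39 and 1.80 FPKM. None of 16 MHC class I and antigen-processing genes that passed changed by 2-fold either (median -0.00057). CXCL10, counted above among the chemokines, is induced by interferon as well as by NF-kB.

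Most markers of inflammatory CAFs rose: 15 of 20 that passed, with a median of 2.47. They included IL6, LIF, CXCL1, CXCL2, CXCL8, CXCL12, CCL2, C3, SAA1 and PTGS2, all given above, and CEBPD, a transcription factor of the acute phase, which went from 11.8 to 43.8 FPKM. HAS2, the hyaluronan synthase, is on the same list and went from 5.27 to 18.2 FPKM, with 5.92% of its exon bases shared with its antisense gene. Of 22 myofibroblastic markers 3 rose, 1 fell and the median was -0.11. Their 3 rises were INHBA, CTGF and COL8A1, and their fall was POSTN. Both lists were chosen with results of these libraries known and are no independent evidence of a CAF class.

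**Figure D4:**
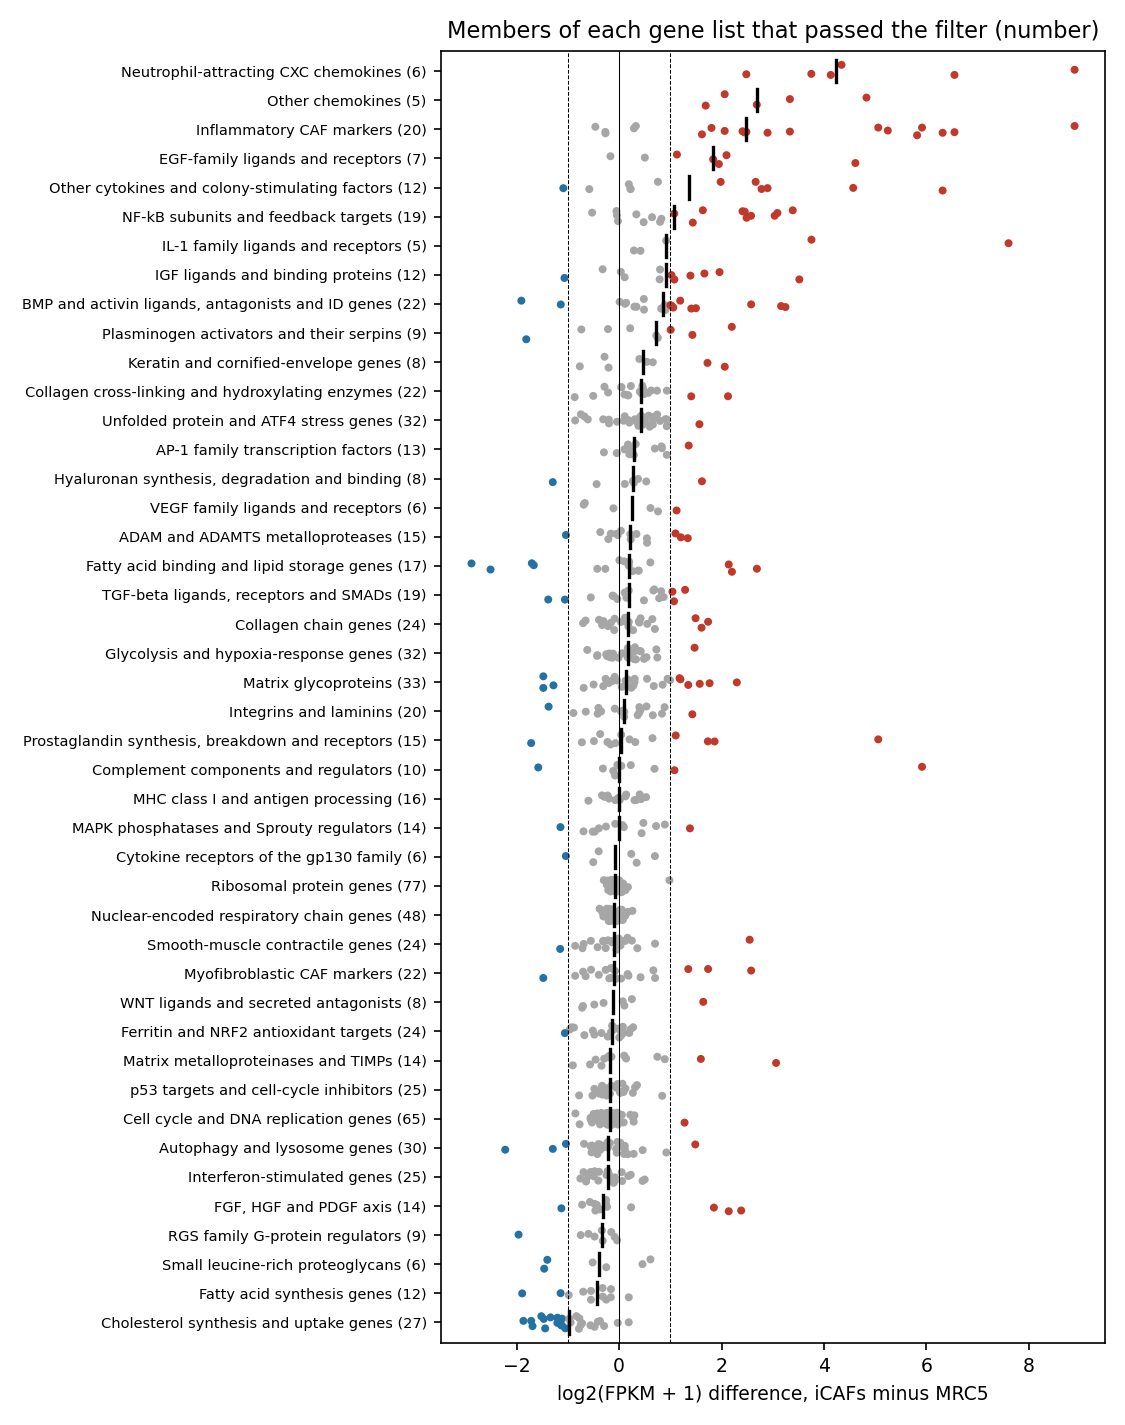
Differences of log2(FPKM + 1), iCAFs minus MRC5, for members of each gene list that passed the filter, 1 point per gene (red at 1 or more, blue at -1 or less), with a black bar at the median of the list and the number of members in brackets. Chemokine lists lie at the top with medians of 4.24 and 2.69, and cholesterol synthesis lies at the bottom with -0.97.

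Contractile genes, the mark of the myofibroblast, lay mostly within the limit, 22 of the 24 that passed, beside 96.3% of all genes. ACTA2 (smooth-muscle actin) had 96.6 FPKM in MRC5 and 52.8 FPKM in iCAFs, a difference of -0.86, and 411 FPKM in iCAFs+JNKi, and 6.75% of its exon bases are shared with FAS. TAGLN had 1341 and 1292 FPKM, with 34.1% of exon bases shared with PCSK7, and MYL9, a myosin light chain, had 815 and 679 FPKM. CNN1 (calponin) had 40.0 and 24.3 FPKM. Of 24 contractile genes that passed 16 were below 0, beside 59.4% of all genes, and their median was -0.10 against -0.06 for all genes. ACTG2, the enteric smooth-muscle actin, fell from 147 to 65.8 FPKM, and MYOCD, the cofactor that switches on smooth-muscle genes, went from 0.421 to 7.31 FPKM, so the cofactor and the genes it is known to drive did not move together.

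The fibrillar collagens lay within the limit, whereas basement-membrane collagen rose. COL1A1 had 1065 and 1094 FPKM, COL1A2 had 996 and 891 FPKM, and COL3A1 had 73.6 and 46.4 FPKM. Beside 1.94% rises and 1.71% falls over all genes, 3 of 24 collagen chains that passed rose and 0 fell. These were COL4A1 (52.5 to 162 FPKM) and COL4A2 (104 to 295 FPKM), partner chains of collagen IV that share 1 promoter region, and COL8A1 (11.5 to 40.7 FPKM), a short-chain collagen. Among enzymes that modify collagen, PLOD2, a lysyl hydroxylase, rose 4.51-fold from 23.0 to 104 FPKM and LEPREL1, a prolyl hydroxylase, 2.74-fold from 18.7 to 51.4 FPKM. LOX, which cross-links collagen, had 89.9 and 92.4 FPKM.

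Non-collagen matrix genes changed in both directions, with 6 rises and 3 falls among 33 glycoproteins that passed, beside 1.94% and 1.71% of all genes. TGFBI, an adhesion protein named for its induction by TGF-beta, rose 3.41-fold from 265 to 905 FPKM, the thrombospondin THBS1 from 274 to 621 FPKM, CTGF, a matricellular growth factor, from 116 to 298 FPKM, and tenascin C (TNC), a matrix protein of wounds and tumours, from 76.1 to 176 FPKM. Fibronectin (FN1), among the highest genes of both libraries, had 2044 and 3939.9 FPKM, a difference of 0.95 just under the limit. Periostin (POSTN) fell from 39.6 to 13.6 FPKM and MFAP4, a microfibril protein, from 43.7 to 15.0 FPKM. Decorin (DCN), a small proteoglycan that binds collagen and TGF-beta, fell 2.77-fold from 296 to 107 FPKM, and PODN of the same family from 7.26 to 2.12 FPKM. CEMIP, which degrades hyaluronan, fell from 19.8 to 7.47 FPKM while the synthase HAS2 rose.

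Some secreted proteases of 2 classes rose. MMP3 (stromelysin) went from 33.7 to 289.6 FPKM (8.59-fold) and MMP1 (interstitial collagenase) from 344 to 1042 FPKM (3.03-fold), with 8.14% of the exon bases of MMP1 shared with WTAPP1. They were the 2 that rose of 14 metalloproteinase and inhibitor genes that passed. Of the 14, 8 were below 0, beside 59.4% of all genes, and the median was -0.17 against -0.06 for all genes. MMP2 had 263 and 237 FPKM, and the inhibitors TIMP1 and TIMP3 had 936 and 1737 FPKM and 63.9 and 70.3 FPKM. In the plasminogen system PLAU (urokinase) went from 339 to 1563 FPKM and PLAT (tissue activator) from 64.5 to 175 FPKM, and the receptor PLAUR, given above, was just past the limit. PLAU shares 31.0% of its exon bases with C10orf55. SERPINB7, a serine protease inhibitor, fell 3.80-fold from 33.5 to 8.81 FPKM. TFPI2, an inhibitor of plasmin and other serine proteases of the matrix, was among the largest rises at 21.9 and 266 FPKM.

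Growth factor lists differed, and most members rose in the EGF family alone. Of 7 EGF-family genes that passed 5 rose, at a median of 1.84: the ligands AREG (1.97 to 71.8 FPKM), EREG (7.44 to 31.6 FPKM), HBEGF (5.95 to 23.8 FPKM) and NRG1 (14.7 to 66.0 FPKM), and ERRFI1, an intracellular brake on the EGF receptor. Of 14 genes of the FGF, HGF and PDGF list that passed 3 rose, 1 fell and 10 were below 0. Their median was -0.32, and 59.4% of all genes were below 0. FGF2 rose from 16.4 to 89.9 FPKM, with 11.8% of exon bases shared with NUDT6, and FGF7, which acts on epithelium, from 13.8 to 52.5 FPKM. FGF1, a fibroblast mitogen, fell from 4.04 to 1.30 FPKM, and ANGPTL4, the remaining rise, is given with the lipid genes. HGF had 50.9 and 37.4 FPKM, and PDGFRA and PDGFRB had differences of -0.46 and -0.24. VEGFC, the lymphatic growth factor, went from 36.0 to 79.5 FPKM (2.21-fold), whereas VEGFA had 11.8 and 20.7 FPKM. VEGFC was the 1 rise among 6 genes of the VEGF list that passed, of which 3 were below 0. WNT5A, a ligand of the non-canonical WNT pathway, rose 3.19-fold from 30.4 to 97.0 FPKM, the 1 rise among 8 WNT genes that passed.

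Of 12 genes for IGF ligands, their binding proteins and regulators of these that passed, 6 rose and 1 fell. The shares over all genes were 1.94% and 1.71%. IGFBP3 went from 25.6 to 304 FPKM (11.9-fold), IGFBP4 from 573 to 1505 FPKM and IGFBP5 from 113 to 360.4 FPKM. PAPPA, a protease that cuts IGFBP4, and its inhibitors STC1 and STC2 rose with them, STC1 from 95.4 to 374 FPKM, and 21.1% of the exon bases of PAPPA are shared with its antisense gene. IGFBP2 fell, from 5.03 to 1.88 FPKM. Binding proteins, protease and inhibitors thus rose in the same library.

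The BMP and activin list had 9 rises and 2 falls among 22 that passed, at a median of 0.86 against -0.06 for all genes. Over all genes 1.94% rose and 1.71% fell. ID1 and ID3, direct targets of BMP signals that block differentiation factors, went from 9.61 to 94.0 FPKM and from 10.1 to 105 FPKM, 9.78-fold and 10.3-fold. INHBA, the subunit of activin A, went from 29.2 to 179 FPKM, and gremlin (GREM1), a secreted BMP antagonist, from 187 to 529.7 FPKM. Among the ligands BMP4 fell from 9.07 to 3.57 FPKM and GDF5 from 11.0 to 2.19 FPKM. In the TGF-beta list, SMAD7 and SKIL, which damp the pathway, rose with TGFB2 (1.29, 1.07 and 1.04), and TGFBR3 and LRRC32, which hold TGF-beta at the cell surface, fell by 1.06 and 1.38 on the log2 scale. TGFB1 had 29.5 and 47.5 FPKM, and 6.59% of its exon bases are shared with HNRNPUL1.

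Cholesterol synthesis genes were lower along the pathway. Of 27 genes for sterol synthesis and uptake that passed, 13 fell, 0 rose and 26 were below 0. Their median was -0.97, and 59.4% of all genes were below 0. HMGCS1, which makes HMG-CoA, went from 23.3 to 5.65 FPKM (4.12-fold lower), and MVK, the mevalonate kinase, from 13.8 to 4.32 FPKM (3.19-fold lower). Further along, SQLE, which oxidises squalene, fell from 37.9 to 17.0 FPKM, LSS, which closes the sterol ring, from 63.2 to 26.8 FPKM, and MSMO1, a sterol oxidase, from 69.1 to 31.3 FPKM. Over 18 enzymes in order from ACAT2 to DHCR7, 18 were lower in iCAFs, 8 of them by the 2-fold limit, with iCAFs to MRC5 ratios between 0.242 (HMGCS1) and 0.803 (PMVK). Their summed level went from 763 to 383 FPKM. ACAT2 shares 17.2% of its exon bases with TCP1, and IDI1 15.0% with IDI2-AS1.

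**Figure D5:**
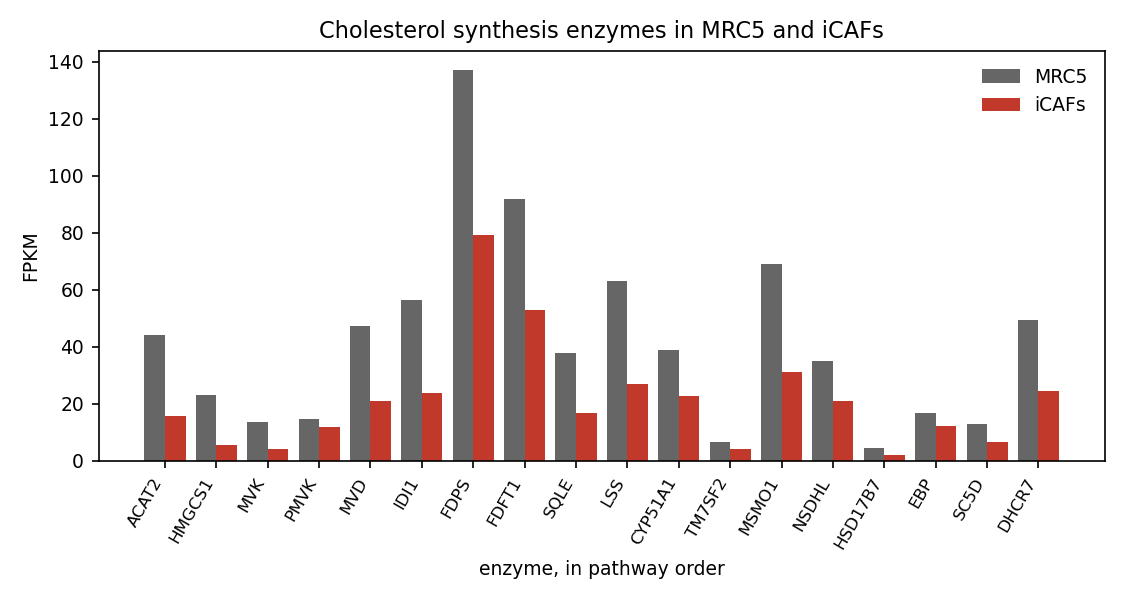
Bars give FPKM of 18 cholesterol synthesis enzymes in pathway order from ACAT2 to DHCR7 in MRC5 (grey) and iCAFs (red), 1 library each. The red bar is the shorter in each pair, from HMGCS1 at 23.3 and 5.65 FPKM to PMVK at 14.9 and 11.9 FPKM.

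Genes of sterol control and transport fell with synthesis. INSIG1, the sterol sensor's anchor, went from 30.2 to 8.66 FPKM, and STARD4, a cholesterol carrier, from 14.9 to 6.66 FPKM. SREBF2 and SREBF1, which encode the SREBP factors, had differences of -0.37 and -0.48, within the limit. The exporter ABCA1 was the 1 gene of the list above 0 that passed, at 8.46 and 9.77 FPKM. Of 12 fatty acid synthesis genes that passed 11 were below 0, beside 59.4% of all genes. SCD, the desaturase, fell 3.89-fold from 59.2 to 15.2 FPKM, and FASN fell from 48.7 to 21.5 FPKM.

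FABP3 and FABP4, carriers of fatty acids, were among the steepest falls, while most of their list lay above 0. FABP3 went from 18.8 to 1.69 FPKM (11.2-fold lower) and FABP4 from 28.7 to 4.21 FPKM (6.82-fold lower). PPARG, the nuclear receptor that drives fat storage and FABP4, fell from 31.4 to 9.20 FPKM, and CD36, a fatty acid receptor, from 4.90 to 0.810 FPKM. In the opposite direction G0S2, which blocks fat breakdown, rose from 10.8 to 53.2 FPKM, ANGPTL4, an inhibitor of lipoprotein lipase, from 6.10 to 30.3 FPKM, and PDK4, which spares glucose, from 0.0848 to 6.0011 FPKM. PLIN2, the coat of lipid droplets, had 58.1 and 58.3 FPKM. Of 17 genes of fat binding and storage that passed 4 fell and 3 rose. Of the 17, 11 were above 0, beside 40.6% of all genes, and their median was 0.19 against -0.06 for all genes.

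Lysosomal and membrane genes supplied other falls. CTSK (cathepsin K), a collagen-degrading protease, fell 4.90-fold from 80.3 to 16.4 FPKM, and NPC2, which hands cholesterol out of lysosomes, from 171 to 69.0 FPKM. Another cathepsin, CTSS, rose from 0.395 to 2.91 FPKM, and of 30 autophagy and lysosome genes 1 rose, 3 fell and 20 were below 0, beside 59.4% of all genes below 0. Caveolin-1 (CAV1), the coat protein of caveolae and an abundant gene of MRC5, fell 3.47-fold from 295 to 85.0 FPKM. Integrin alpha-6 (ITGA6), a laminin receptor, fell from 79.0 to 29.8 FPKM, while ITGA1, a collagen receptor, rose from 16.4 to 45.9 FPKM.

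Further genes among the 30 largest falls had diverse roles. OXTR, the oxytocin receptor, went from 14.9 to 1.82 FPKM, the stem cell factor receptor KIT from 11.0 to 2.64 FPKM, and RGS4, which shortens G-protein signals, from 18.6 to 4.03 FPKM. None of 9 RGS genes that passed was above 0, beside 40.6% of all genes. NPTX1, a neuronal pentraxin, went from 91.2 to 20.8 FPKM, and PRPS1, which makes the sugar phosphate of nucleotide synthesis, from 93.5 to 21.9 FPKM (4.28-fold lower). GPNMB, a lysosomal membrane glycoprotein, went from 10.7 to 1.18 FPKM. The others were SH2D5, ADAMTSL1, MAP3K7CL, TMEM35, AHNAK2, PRSS23, ATP8B1, DSEL, MIR3687, and ITGBL1, CEMP1, SNURF and RPS10-NUDT3, the last 4 of which share from 52.1% to 100% of their exon bases with a neighbour. RPS10-NUDT3, a readthrough row, was the single fall past 3 and was listed at 0 in iCAFs, while RPS10 had 635 and 627 FPKM and NUDT3 13.6 and 17.2 FPKM.

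Large rises outside the lists were DIO2, the deiodinase that activates thyroid hormone (0.984 to 18.0 FPKM), EHF, an ETS factor of epithelia (0.533 to 11.8 FPKM), C8orf4 (0.625 to 17.1 FPKM) and TMEM132A (16.9 to 144 FPKM). Of 10 metallothionein genes, whose proteins bind zinc and copper, 4 passed and all 4 rose. The other 6 reached at most 1.81 FPKM in MRC5 or iCAFs. MT2A went from 1579 to 3827 FPKM, the highest level among the rising genes. MT1E went from 71.7 to 244 FPKM, MT1L from 37.2 to 122 FPKM and MT1X from 29.0 to 108 FPKM. The 4 genes lie together at chr16:56642496-56718108 (GRCh37), and being near copies they may exchange reads. TGM2, a transglutaminase that cross-links matrix proteins, rose 4.20-fold from 136 to 573 FPKM.

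Genes of housekeeping and proliferation lay almost all within the limit, as did 96.3% of all genes. Of 65 cell-cycle and replication genes that passed 57 were below 0, beside 59.4% of all genes. Their median was -0.19 against -0.06 for all genes, and the 1 that passed the limit was CDK2, up from 15.9 to 40.0 FPKM. MKI67 had 4.54 and 3.25 FPKM, TOP2A 14.5 and 14.5 FPKM and CDK1 7.93 and 8.14 FPKM. Among 77 ribosomal protein genes, 48 nuclear genes of the respiratory chain and 25 p53 targets, 0 passed the limit, with medians of -0.08, -0.10 and -0.18. CDKN1A (p21), which arrests the cell cycle, had 478 and 576 FPKM. Fewer cells of a type and less RNA per cell cannot be told apart in these bulk libraries.

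Stress pathways had small shifts. HIF1A, the oxygen-regulated factor, rose 2.80-fold from 90.4 to 253 FPKM, the 1 of 32 glycolysis and hypoxia genes past the limit, and its classical target CA9 was at 0 and 0.238 FPKM. LDHA had 221 and 372 FPKM and the glucose transporter SLC2A1 50.9 and 32.7 FPKM. Of 32 unfolded-protein and ATF4 genes 24 were above 0, beside 40.6% of all genes, at a median of 0.42. ASNS, the asparagine synthetase, had 11.0 and 21.987 FPKM and DDIT3 (CHOP) 20.9 and 12.1 FPKM. VLDLR was the 1 of the 32 past the limit, from 0.807 to 4.36 FPKM. Among 24 NRF2 and ferritin genes AKR1C1 fell, from 8.24 to 3.43 FPKM, and HMOX1 had 17.2 and 8.85 FPKM.

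The JUN overexpression table allowed the iCAF lists to be read against JUN in the same cell line, with no library in common. Of 10020 genes that passed the filter in both tables, 673 (6.72%) were at least 2-fold higher and 323 (3.22%) lower in JUN WT than in con, while JUN AA had 506 (5.05%) above con by as much and 351 (3.5%) below it. Of the 228 genes that rose in iCAFs 159 passed in both tables, as did 186 of the 202 that fell. Steep rises such as IL1B, CXCL1, C3, SAA1 and PTGS2, below 1 FPKM in each JUN table library, are thus left out. Of the 159 genes, 29 (18.2%, or 4.31% of the JUN WT list) were also higher in JUN WT. They included CXCL8 and CXCL3, at only 4.46 and 2.96 FPKM in JUN WT, and LIF, MMP1, MMP3, HBEGF, FGF2, VEGFC, STC1 and TFPI2. A like number, 25 (15.7%, or 7.74% of those lower), were lower in JUN WT, among them IGFBP3, PLAU, TGM2, ID3, CTGF, COL4A1, COL4A2 and AREG. In JUN AA 9 of the 159 were higher (5.66%, or 1.78% of its list) and 29 lower (18.2%, or 8.26% of its list). The median JUN WT difference over the 159 genes was 0.09 beside 0.15 over all 10020, and for JUN AA -0.32 beside -0.02. Of 186 genes that fell in iCAFs, 27 (14.5%, or 4.01% of the JUN WT list) were higher in JUN WT, among them CAV1, NPC2, OXTR, GPNMB and PRPS1, and 19 (10.2%, or 5.88% of those lower) were lower, among them CEMIP, MFAP4, PODN and TNFSF4. For the same 186 genes JUN AA was above con in 11 (5.91%, or 2.17% of its list) and below it in 22 (11.8%, or 6.27% of its list). Over the 186 genes the JUN WT difference had a median of 0.04 and that of JUN AA one of -0.11. No test was run on these overlaps. JUN mRNA itself reached 4543 FPKM with the wild-type virus but 291 FPKM with the mutant one, from 25.5 FPKM in con. The interferon-stimulated gene ISG15 differed too, at 2305 FPKM in con, 3512 FPKM with wild-type JUN and 335 FPKM with the mutant. The overlaps of JUN WT and JUN AA thus differ in more than the phosphorylation sites, and which difference lies behind them was not tested.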

How the data were processed

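RNA-seq of MRC5, iCAFs and iCAFs+JNKi, 1 library each, was used. RNA had been taken with Trizol and libraries made with the NEBNext Ultra kit. The authors deposited FPKM per gene symbol in 1 table for these libraries and another for con, JUN WT and JUN AA. Per the submitters' processing notes HISAT2 2.1.0, StringTie 2.1.1 and hg19 were used, while annotation, strand setting and read numbers are not given in the sources used here. FPKM carry no counts, so no count model and no interval could be had.

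From the deposited FPKM, log2(FPKM + 1) was taken with a pseudocount of 1, and genes averaging 1 FPKM or more over 3 columns were kept. Of 25370 rows, 28 had a symbol turned into a date, and for the 2 repeated symbols the row with the higher mean was kept. With 1 library per side no test was made. Lists held fixed genes. The named genes were the 30 largest rises and the 30 largest falls at a mean of at least 5 FPKM over MRC5 and iCAFs, in each list the key and 2-fold members, at most 8 of them with values, the 3 genes just inside and outside each limit, and JUN, VEGFC and IL1B. IL1RAP, IL1RN, SREBF1, SREBF2, ABCA1, PMVK, RPS10, NUDT3 and the rows of overlapping genes were named after their values were seen. Some named genes are not reported here. Members and lists were chosen with earlier results of these data known.

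Gene positions and shared exon bases came from GENCODE on GRCh37, the build of hg19, and promoters from RefSeq. Python 3.11.15, pandas 2.3.3 and numpy 2.4.6 were used, with figures in matplotlib 3.10.9. The computation was tested on simulated data. Alternatives were a pseudocount of 0.1, no filter, a filter at 5 FPKM or over MRC5 and iCAFs alone, rescaling to a sum of 1000000, centring on the median gene, summing repeated symbols, and, chosen after seeing the data, leaving out small RNA and readthrough rows.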

Additional observations from a re-analysis of the deposited data

How the results depend on the processing

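With 1 library a side no value has an error, so one was called moved when it shifted by over 0.25 on the log2 scale, or a count by over 1.5 times. Genes near 0 changed sign, TOP2A with rescaling and JUN, TAGLN and TOP2A with centring, as did small list medians such as that of metalloproteinases and TIMPs. Centring on the median gene, summing repeated symbols and leaving out small RNA and readthrough rows moved none of the counts and list medians. A pseudocount of 0.1 gave 356 genes lower, and medians of 7.05 for neutrophil-attracting CXC chemokines, 3.41 for other chemokines, 2.12 for the IL-1 family and 1.81 for other cytokines. Without a filter the medians were 0.20 for other chemokines, 0 for the IL-1 family, 0.094 for other cytokines, 0.81 for NF-kB genes, 0.054 for the EGF family (1.84 with the filter), 0.41 for the BMP and activin list (0.86) and -0.04 for the FGF, HGF and PDGF list (-0.32), because members at or near 0 in both libraries then enter. The median of the metallothioneins was then 0.98, against 1.72 with the filter. A minimum mean of 5 FPKM left 128 genes lower, and gave medians of 3.34 for other chemokines, 3.95 for the IL-1 family, 0.76 for other cytokines, 1.54 for NF-kB genes and 0.14, against -0.17, for metalloproteinases and TIMPs. The filter over MRC5 and iCAFs alone gave 2.34 for the IL-1 family and 1.98 for other cytokines. Rescaling to a sum of 1000000 gave 347 genes higher and 347 lower, 5.44 for neutrophil-attracting CXC chemokines and 1.80 for other cytokines. The cause of the other moves was not tested. Of 232 named genes, 68 moved with a pseudocount of 0.1 and 50 with rescaling, and centring took 9 of 178 past the 2-fold limit out and brought 4 in. The depth of the libraries is unknown, and without replicates no value here separates the medium from the library.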

Other observations

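Genes for fetal and embryonic haemoglobin, silent in fibroblasts as a rule, were raised together. HBG2 had 0.538 FPKM in MRC5, 10.2 FPKM in iCAFs and, with JNKi added, 86.8 FPKM. HBG1 went from 0.358 to 6.39 and then 41.5 FPKM, and HBE1 from 1.41 to 11.5 and then 64.1 FPKM. They lie next to each other at chr11:5269499-5526882 (GRCh37), where no other gene passed the filter. HBG1 and HBG2, below 1 FPKM in MRC5, passed only through the treated libraries. HBG2 shares 4.40% of its exon bases with HBE1. HBG1 and HBG2 are near copies, so their split is uncertain.

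The next genes were chosen after their values were seen. The bradykinin receptors BDKRB1 and BDKRB2 went from 50.4 to 122 FPKM and from 21.4 to 58.1 FPKM. IRAK2 and IRAK3, kinases behind the IL-1 receptor, went from 4.54 to 20.7 FPKM and from 0.495 to 3.83 FPKM. SOCS3, the feedback inhibitor of gp130 signals, went from 8.78 to 23.2 FPKM, NAMPT, which makes NAD, from 11.7 to 55.2 FPKM, and KYNU of tryptophan breakdown from 2.02 to 11.5 FPKM.

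Some pairs of overlapping or near-identical rows moved in opposite directions. SMN1 went from 6.46 to 2.29 FPKM while its copy SMN2 went from 4.83 to 22.6 FPKM. SNURF went from 37.2 to 10.5 FPKM and SNRPN, which shares its exons, from 39.5 to 89.6 FPKM, and their sum from 76.7 to 100.05 FPKM, a difference of 0.38. AKAP2 went from 148 to 52.3 FPKM and PALM2-AKAP2 from 13.9 to 37.4 FPKM, with a difference of -0.84 for the sum. CHKB and CPT1B fell by 1.28 and 1.25 on the log2 scale while the readthrough CHKB-CPT1B, listed at 0 in MRC5, reached 3.23 FPKM. Small RNA and readthrough rows were 2.07% of the genes that passed, 6.14% of those that rose and 5.45% of those that fell. How the reads were shared between such rows was not tested.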
